A study of Mus musculus with 2 samples.

Results

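The fibroblast-type cells of subcutaneous MC38 tumours were examined in 2 single-cell RNA libraries, 1 from a control tumour group and 1 from a UBD overexpression group. They were chosen by a rule on 7 genes. A barcode had to carry at least 1000 unique molecular identifiers (UMIs, each a counted RNA molecule), at least 200 genes and at most 20% mitochondrial UMIs. Cdkn2a had to be under 5 UMIs per 10000, and the fibroblast genes Dcn, Lum, Dpt and Pdgfra together had to reach 10 per 10000 with at least 2 of them seen. Barcodes with any UMI of Ptprc (the pan-leukocyte CD45) or Cdh5 (VE-cadherin of endothelium) were left out. The rule kept 305 barcodes, 121 of 13613 from the control library and 184 of 13255 from the UBD overexpression library.

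MC38 is a mouse colon carcinoma line, and UBD (FAT10) is a ubiquitin-like protein that interferon gamma and TNF induce. Tumours formed by MC38 cells in mice were minced, digested, cleared of red blood cells and loaded for droplet capture with 3' chemistry. The control and the UBD overexpression library share this host setting. Strain, age, time after injection, number of pooled animals and the vector behind the overexpression are not stated in the labels. Each group holds 1 library, so no difference between them has a replicate check, and no test or p-value is given. Intervals cover counting error alone.

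Fibroblasts build the collagen-rich matrix around tumours, secrete growth factors and chemokines, and take several states. Adventitial or universal fibroblasts (Pi16, Dpp4) line vessels and fascia, inflammatory ones secrete Il6, Cxcl1 and Ccl2, and contractile ones express Acta2 and Tagln. Like most cells, fibroblasts answer type I interferon through transcription factors such as STAT2 and IRF9 that bind interferon-stimulated response elements (ISREs) in the promoters of genes such as Ifit1, Ifit3 and Rsad2. When cell cholesterol is low, SREBP2 raises the enzymes of cholesterol synthesis through sterol response elements.

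The promoter stretches shown here belong to 3 interferon-induced genes that were lower in the UBD overexpression library and to 1 cholesterol enzyme that was higher. Each stretch shows the 120 bases from 160 to 41 bases before the start, 5′ to 3′, from RefSeq's GRCm38.p6 windows. Capitals mark matches, on either strand, to an ISRE-like pattern of GAAA, any 2 bases and GAAA again (it reads as TTTC, any 2 bases and TTTC in these stretches), or in Hmgcs1 to CACCCCAC, the core letters of a sterol response element. Ifit1 lies at chr19:34640729-34640848 (plus strand), Ifit3 at chr19:34583369-34583488 (plus strand), Rsad2 at chr12:26456493-26456612 (minus strand) and Hmgcs1 at chr13:119690191-119690310 (plus strand).
Ifit1: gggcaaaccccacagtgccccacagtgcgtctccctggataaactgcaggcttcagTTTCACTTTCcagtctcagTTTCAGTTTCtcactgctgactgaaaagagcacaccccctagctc
Ifit3: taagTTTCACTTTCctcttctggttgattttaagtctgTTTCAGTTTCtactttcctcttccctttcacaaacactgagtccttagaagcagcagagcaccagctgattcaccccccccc
Rsad2: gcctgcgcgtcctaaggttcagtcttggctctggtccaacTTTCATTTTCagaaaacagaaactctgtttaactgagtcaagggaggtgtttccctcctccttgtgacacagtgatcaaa
Hmgcs1: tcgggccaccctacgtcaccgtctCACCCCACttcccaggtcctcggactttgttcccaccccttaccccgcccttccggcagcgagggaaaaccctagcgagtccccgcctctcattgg

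The matches in Ifit1 began 104 and 85 bases before the start, those in Ifit3 156 and 122 bases before it, that in Rsad2 120 bases before it and that in Hmgcs1 136 bases before it. RefSeq windows of 300 bases (250 before and 50 after the start) were found for 14 of the 20 type I interferon genes, and 8 of the 14 held the ISRE-like letters. Over all 32851 windows, 3.44% held them. The sterol letters stood in 2.87% of all windows and in 1 of the 10 cholesterol genes with a window, Hmgcs1. A match describes letters and is not a measured binding site.

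The members did not form 1 uniform cell type. Y-linked genes (Ddx3y, Eif2s3y, Kdm5d and Uty), which the rule did not use, were at 105 and 95.6 CPM in macrophage-gated barcodes of the control and UBD overexpression libraries, and at 2.09 and 1.03 CPM in Cdkn2a-high barcodes, which the rule sets aside as tumour-type cells. CPM here means UMIs of a gene per 1000000 UMIs summed over the cells of a set in 1 library. Among members they were higher where the summed marker genes were higher. In the 2 lowest bands, with a marker sum of 10 to 15 and 15 to 20 per 10000, the control library had no Y-linked UMI in 31 and 12 cells, which allows at most 7.79 and 26.7 CPM. The UBD overexpression library had 14.6 and 16.4 CPM there. In the highest band, at 80 or more per 10000, the levels were 115 and 151 CPM. Cdkn2a ran the other way, from 332 and 329 CPM in the lowest band to 37.0 and 60.5 CPM in the highest. Pi16 was at 10.4 and 40.7 CPM in the lowest band and at 1622 and 1330.0 CPM in the highest.

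**Figure D1:**
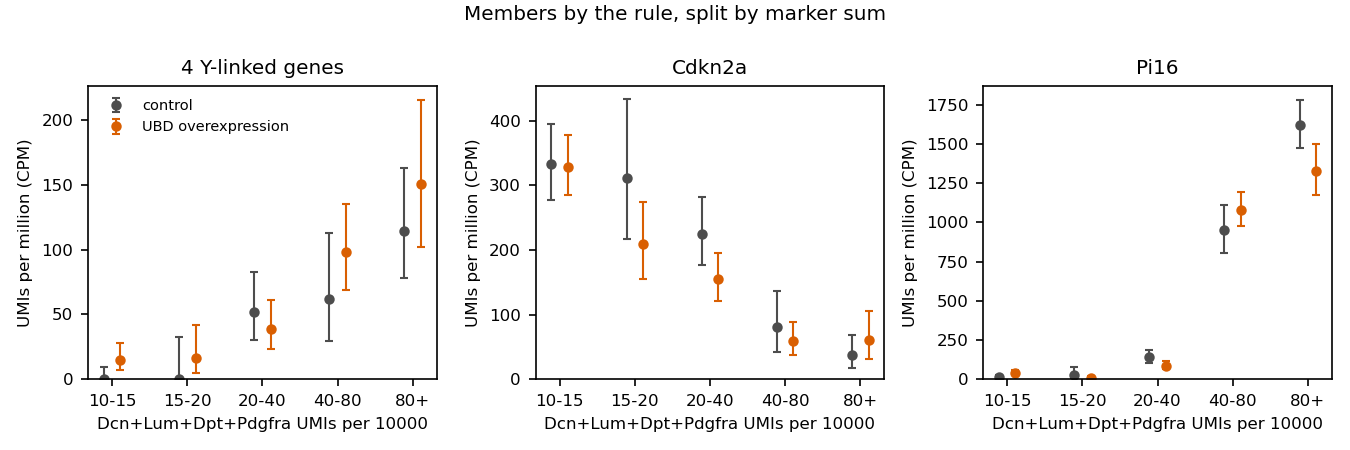
Y-linked genes, Cdkn2a and Pi16 (CPM, vertical axes) in members by the rule, split by the summed Dcn, Lum, Dpt and Pdgfra UMIs per 10000 (horizontal axes), for the control and UBD overexpression libraries. Points are summed UMIs of all cells in a band and bars 95% Poisson intervals; Y-linked genes and Pi16 are high where Cdkn2a is low, in the bands from 40 upward.

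Members with a marker sum under 20 thus had Y-linked RNA at 0 and 15.1 CPM, far under the macrophage gate. Cdkn2a-high barcodes themselves held Dcn at 391 and 249.7 CPM and Lum at 98.1 and 63.8 CPM, and 635 control and 614 UBD overexpression barcodes met every marker limit but that on Cdkn2a. For this reason each result is given for all members by the rule and for the members with a marker sum of at least 40 per 10000, called high-marker members, 58 control and 77 UBD overexpression cells. This limit was chosen after the bands had been seen. High-marker members had 94.8 and 117 CPM of Y-linked genes, close to the macrophage gate. In the band of 40 to 80 per 10000 alone they were at 61.6 (95% interval 29.5 to 113) and 98.3 CPM. Because the limit followed from the bands, these levels describe the chosen cells and do not check the label. Y-linked RNA also bears on host origin and not on cell type. The host fibroblast label is used for high-marker members and is not extended to the others. Members with a sum of 20 to under 40 (20 and 43 cells) had 51.7 and 38.8 CPM. The 15.1 CPM of low-marker UBD overexpression members (95% interval 8.06 to 25.9) was above the 1.03 CPM of Cdkn2a-high barcodes, so that set may be mixed. The whole gated set is therefore called members by the rule.

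The rule's own thresholds set the following values, which are a description. Just inside the marker limit, at 10 to 12 per 10000, lay 16 control and 22 UBD overexpression barcodes with Cdkn2a at 348 and 338 CPM. Just outside it, at 8 to 10, lay 15 and 22 barcodes with Cdkn2a at 372 and 323 CPM. Dcn was seen in 121 and 183 members, Lum in 97 and 161, Dpt in 80 and 133 and Pdgfra in 73 and 124. Sulf1, a marker outside the rule, was at 129 and 221 CPM in high-marker members and at 1.33 and 1.53 CPM in Cdkn2a-high barcodes.

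Members summed to 1258697 UMIs for control and 1897957 for UBD overexpression, with medians of 6930.0 and 9125 UMIs a cell. For high-marker members the sums were 432473 and 575018 UMIs, and the medians 6633 and 7196. The libraries shared 71 barcode sequences, 3 of them in members. Gm42418, a transcript that overlaps ribosomal RNA repeats and often tracks ribosomal RNA carry-over, was at 6732 and 1853 CPM, and it was lower in the UBD overexpression library in the Cdkn2a-high, macrophage, T cell, endothelial and neutrophil gates too.

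UBD's own transcript was nearly absent from these cells. Ubd gave 1 UMI in control members and 4 UMIs in UBD overexpression members, and 0.316 and 1.15 CPM in Cdkn2a-high barcodes. Whether the overexpression construct carries the sequence counted as Ubd is not stated in the sources used here, so these counts do not check the labels.

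T and NK cell, endothelial, neutrophil and red cell RNA was sparse in the high-marker members, while the macrophage marker sum was higher. Of 10 T and NK cell markers, all were at 0 in control cells and 6 in UBD overexpression cells. The 10 endothelial markers summed to 76.3 and 93.9 CPM, the 10 pericyte and smooth muscle markers to 264 and 99.1 CPM, the 8 neutrophil markers to 34.7 and 26.1 CPM and the 5 red cell genes to 0. Ndufa4l2 alone held 192 and 62.6 CPM of the pericyte and smooth muscle sums. Macrophage markers summed to 1554 and 1002 CPM, with 0 and 1 of 12 at 0. The 12 include Spp1, which fell across the marker bands as Cdkn2a did. It was at 6338 and 8107 CPM in the lowest band, 1010 and 906 CPM at 40 to 80 and 241 and 327 CPM in the highest. The sum is therefore not read as macrophage RNA alone. C1qa was at 146 and 31.3 CPM and C1qb at 118 and 24.3 CPM, both higher in the control library. There a single cell supplied 54.0% of the C1qa UMIs and a single cell 52.9% of the C1qb UMIs. In the macrophage gate C1qa stood at 4592 and 5122 CPM. The part of macrophage RNA in the results below was not tested, except where a value without barcodes over 20 per 10000 of it is given.

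High-marker members carried a broad stromal program. The genes with the largest excess over every other gated cell type, which the choice of cells favours and which are a description, included Mfap5 (1263 and 2849 CPM, seen in 50 and 73 cells), a microfibril protein, and Col1a2 (16616 and 14121 CPM, seen in 57 and 74 cells). Tnxb, a tenascin of loose connective tissue, was at 705 and 835 CPM. Clec3b (tetranectin) was at 839 and 555 CPM, and Dpep1, a dipeptidase, at 338 and 231 CPM. Vgll3, a TEAD cofactor, was seen in 33 and 48 cells. Sod3 (extracellular superoxide dismutase), Eln (elastin), Ogn (osteoglycin), Svep1, Abi3bp, Cilp, Fndc1, Mmp23 and the complement protease C1s1 completed the 15 genes.

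Members by the rule took a larger share of the UBD overexpression library, while for high-marker members, to which the fibroblast label is limited here, the interval of the difference over all barcodes includes 0. Members by the rule made up 0.889% (95% exact interval 0.738 to 1.06; 121 of 13613) of control barcodes and 1.39% (1.20 to 1.60; 184 of 13255) of UBD overexpression barcodes, a difference of 0.499 percentage points (95% Newcombe interval 0.246 to 0.757). For high-marker members the shares were 0.426% (95% exact interval 0.324 to 0.550; 58 of 13613) and 0.581% (0.459 to 0.726; 77 of 13255), a difference of 0.155 percentage points (95% Newcombe interval -0.0150 to 0.328). Over barcodes with Cdkn2a under the limit alone, high-marker members were 0.814% (95% exact interval 0.619 to 1.05; 58 of 7121) and 1.63% (1.29 to 2.03; 77 of 4720), a difference of 0.817 percentage points (95% Newcombe interval 0.415 to 1.26). Such barcodes numbered 7121 for control and 4720 for UBD overexpression, so part of the larger difference on this base comes from a smaller denominator.

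Expression was compared as the ratio of CPM in the UBD overexpression library to CPM in the control library. A gene was counted as higher or lower where the ratio was at least 2 in either direction and its exact 95% interval excluded 1, among genes with at least 50 UMIs over both libraries. Of 6376 genes measured in members by the rule, 122 (1.91%) were higher and 192 (3.01%) were lower. Of 2704 genes measured in high-marker members, 101 (3.74%) were higher and 92 (3.4%) were lower. These shares are the background against which the counts of each gene list are read. The median log2 ratio over all genes was -0.01 in members by the rule and 0.14 in high-marker members, so list medians in the latter are to be set against 0.14.

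The largest differences in high-marker members included secreted and matrix genes. Wnt2, a canonical Wnt ligand (chr6:17988940-18030585, minus strand on GRCm38, GENCODE vM21), was at 30.1 CPM in control and 146 CPM in UBD overexpression cells and was 4.86-fold higher (95% interval 2.69 to 9.50). It was seen in 8 and 30 cells, and in all members by the rule it was 2.70-fold higher. Prg4 (lubricin), a lubricating proteoglycan, was at 141 CPM in control and 426 CPM in UBD overexpression cells, 3.02-fold higher (95% interval 2.27 to 4.07). Ildr2, a membrane immunoglobulin-domain protein, was at 16.2 and 111 CPM, and Bmper, an extracellular BMP modulator, at 23.1 and 78.3 CPM. Crip2, a LIM-domain protein, was at 43.9 and 162 CPM. Dhrs3, a retinaldehyde reductase, was at 30.1 and 99.1 CPM. In Cdkn2a-high barcodes Wnt2 was at 0.577 and 0.230 CPM, Prg4 at 0.361 and 0.440 CPM and Bmper at 1.27 and 0.894 CPM. Cxcl13, a B-cell chemokine, was at 41.6 and 237 CPM, but 1 cell supplied 44.9% of its UMIs in the UBD overexpression library.

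The 15 genes with the smallest ratios came from several classes, and the fixed matrix lists, given next, held few lower members. Mgp (matrix Gla protein, an inhibitor of calcification; chr6:136872435-136875823, minus strand) was at 3473 CPM in control and 586 CPM in UBD overexpression cells, 5.93-fold lower (95% interval 5.26 to 6.69). It was seen in 30 cells of each library, and 1 control cell supplied 23.6% of its UMIs. Gas6, the ligand of the receptor Axl, was at 1082 CPM in control and 351 CPM in UBD overexpression cells, 3.08-fold lower (95% interval 2.61 to 3.65). Cpxm2, a carboxypeptidase-like protein, was at 375 and 47.0 CPM, and C1qtnf3 (CTRP3), a secreted C1q/TNF-family protein, at 511 and 101 CPM. Both were seen in few cells, 14 and 12 cells and 13 and 11 cells. Gdf10, a BMP-family ligand, was at 102 and 10.4 CPM. Hmox1 (heme oxygenase) was at 377 and 60.9 CPM, 6.19-fold lower (95% interval 4.28 to 9.20), and in the macrophage gate at 328 and 224 CPM. Mdk (midkine), a heparin-binding growth factor, was at 106 and 22.6 CPM. Lars2, a mitochondrial tRNA synthetase, was at 354 and 106 CPM and, like Gm42418, was lower in the other gates, at 212 and 59.2 CPM in Cdkn2a-high barcodes and 326 and 85.7 CPM in the macrophage gate. Whether the ribosomal RNA signal plays a part in it was not tested. Ifit3, also among the 15, is given with the interferon genes. The other 6, from Nr4a2 and B4galt5 to Ndufa4l2, were 3.07-fold to 3.93-fold lower.

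**Figure D2:**
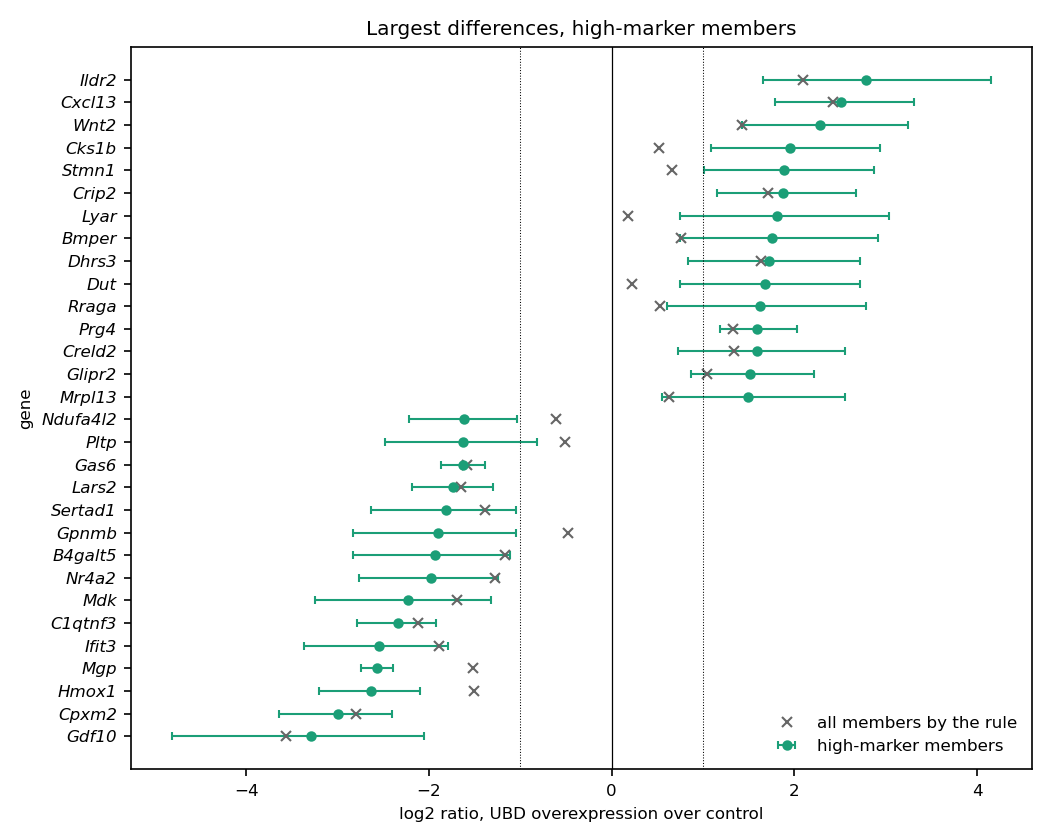
Log2 ratio of the UBD overexpression library over the control library (horizontal axis) for the 15 genes with the largest and the 15 with the smallest ratio in high-marker members (vertical axis). Green points and bars are ratios and exact 95% intervals, grey crosses the ratio in all members by the rule where 50 UMIs were reached, and dotted lines a 2-fold difference; the crosses of Cks1b, Stmn1, Lyar and Dut lie under a 2-fold difference.

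In all members by the rule, the top of the list differed in kind. Tagln (transgelin) was at 65.9 CPM in control and 213 CPM in UBD overexpression cells, 3.24-fold higher (95% interval 2.55 to 4.15), but in high-marker members at 64.7 and 55.7 CPM. Hspb1, a small heat shock protein, was at 157 CPM in control and 416 CPM in UBD overexpression cells, 2.65-fold higher (95% interval 2.26 to 3.11). Among lower genes, Ankrd1 (a YAP target) was at 157 and 8.96 CPM, Sprr1a at 53.2 and 3.69 CPM, Serpinb2 at 236 and 23.2 CPM and Ereg (epiregulin) at 309 and 96.9 CPM. Each of these 4 was also lower in Cdkn2a-high barcodes, where Ankrd1 was at 179 and 58.7 CPM and Ereg at 274 and 125 CPM. Of the genes that passed the naming limits, 16 were higher in both sets of cells (40 in members by the rule, 98 in high-marker members), and 32 were lower in both (78 and 71).

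Most interstitial collagens had ratios under 1 in high-marker members. Of the 14 interstitial collagens, 0 were at least 2-fold higher and 2 at least 2-fold lower in high-marker members, with a median log2 ratio of -0.26 and 12 of 14 had a ratio under 1. In all members by the rule no collagen passed 2-fold and the median was -0.20. In members with a marker sum under 20, at a minimum of 20 summed UMIs, 7 of 14 collagens were higher and 0 lower, with a median of 0.85, where 5.06% of 6546 measured genes were higher and 6.26% lower and the median over those genes was -0.04. Col1a1, the main chain of type I collagen, was at 13703 CPM in control and 8979 CPM in UBD overexpression cells, a ratio of 0.655 (95% interval 0.631 to 0.680). Col3a1 was at 21224 and 17923 CPM. Col8a1 was at 578 and 231 CPM, 2.50-fold lower (95% interval 2.02 to 3.11), and Col11a1 at 166 and 17.4 CPM, seen in 9 and 3 cells. Col6a3 (816 and 909.5 CPM) and Col5a3 (268 and 289 CPM) had ratios above 1 with intervals that include 1.

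Enzymes that process and crosslink collagen had a median ratio near 1. Of 15 measured genes of that list, 0 were higher and 0 lower in high-marker members, with a median log2 ratio of 0.05. Plod2, the lysyl hydroxylase of collagen telopeptides, was at 80.9 and 158 CPM, a ratio of 1.96 (95% interval 1.31 to 2.98), and Lox, the lysyl oxidase, at 890.2 and 1089 CPM, a ratio of 1.22 (95% interval 1.08 to 1.39). Serpinh1 (HSP47), the collagen chaperone, was at 1787 and 1845 CPM.

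Genes of elastic fibres and microfibrils, singled out of the proteoglycan and glycoprotein list after their values had been seen, had ratios on both sides of 1. Mfap5 (chr6:122505845-122529290, plus strand), a microfibril-associated glycoprotein, was at 1263 CPM in control and 2849 CPM in UBD overexpression cells, 2.26-fold higher (95% interval 2.05 to 2.49), and was seen in 50 of 58 and 73 of 77 cells. In all members by the rule it was 2.22-fold higher. Eln (elastin) was at 645 and 1066 CPM, a ratio of 1.65 (95% interval 1.43 to 1.91). Fbn1 (fibrillin-1), the microfibril backbone, was at 1036 and 1666 CPM, a ratio of 1.61 (95% interval 1.44 to 1.80). Fbln2 (fibulin-2) was at 1124 and 1261 CPM, while Mfap2 was at 395 and 263 CPM, a ratio of 0.664 (95% interval 0.530 to 0.832), and Ltbp4, which tethers TGF-beta to microfibrils, at 118 and 53.9 CPM, 2.19-fold lower (95% interval 1.37 to 3.54).

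Of the 26 measured proteoglycans and glycoproteins, 1 was higher (Mfap5) and 2 were lower (Fmod and Ltbp4). Fmod (fibromodulin), a collagen-binding proteoglycan, was at 294 and 20.9 CPM, seen in 9 and 3 cells, and 1 control cell supplied 57.5% of its UMIs. Sparc, a collagen-binding matricellular protein, was at 14852 and 14864 CPM, a ratio of 1.00 (95% interval 0.969 to 1.03). Bgn (biglycan) was at 4208 and 3202 CPM and Thbs1 (thrombospondin-1) at 1094 and 671 CPM. Among proteases and inhibitors, Mmp14, the membrane-bound collagenase, was at 395 CPM in control and 183 CPM in UBD overexpression cells, 2.17-fold lower (95% interval 1.69 to 2.79). Its substrate Mmp2 (gelatinase A) was at 1737 and 1080.0 CPM, Timp2, which bridges both, at 1711 and 1104 CPM, and Ctsk (cathepsin K) at 738 and 402 CPM, all 3 under 2-fold. Serpine2 (protease nexin-1) was at 153 CPM in control and 395 CPM in UBD overexpression cells, 2.59-fold higher (95% interval 1.96 to 3.46).

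Interferon-stimulated genes were lower in the UBD overexpression library, in members by the rule and, with a smaller median difference, in high-marker members. In members by the rule, 0 of 15 measured genes of the 20-gene type I interferon list were higher and 8 were lower, with a median log2 ratio of -1.06. In high-marker members, 0 of 11 were higher and 4 were lower (Ifit1, Ifit3, Irf7 and Rsad2), with a median of -0.76. In members with a marker sum under 20, at a minimum of 20 summed UMIs, 8 of 13 were lower with a median of -1.52, beside 6.26% of all genes there. Leaving out barcodes with macrophage RNA over 20 per 10000 kept 113 control and 181 UBD overexpression members by the rule. Their median was -1.04, and barcodes with less macrophage RNA stayed in. In members with a Y-linked UMI alone the median was -0.90.

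Rsad2 (viperin), an antiviral radical-SAM enzyme whose promoter stretch is printed above, was at 264 CPM in control and 31.3 CPM in UBD overexpression cells, 8.42-fold lower (95% interval 5.10 to 14.7). It was seen in 22 and 8 cells, and 1 cell supplied 38.6% of the control UMIs. Ifit3, an RNA-binding antiviral adaptor, was at 183 and 31.3 CPM, 5.84-fold lower (95% interval 3.46 to 10.3). Ifit1, which binds uncapped viral RNA, was at 180.4 and 74.8 CPM, 2.41-fold lower (95% interval 1.64 to 3.59). Irf7, the transcription factor that amplifies interferon production, was at 349 and 157 CPM, 2.23-fold lower (95% interval 1.71 to 2.93), seen in 43 and 39 cells. Bst2 (tetherin) was at 1006 and 553 CPM and Ifi27l2a at 2513 and 1635 CPM, each under 2-fold lower. Isg15, a ubiquitin-like modifier as UBD is, was at 85.6 CPM in control high-marker members, with a ratio of 0.935 (95% interval 0.593 to 1.48). In members by the rule 14 of the 15 measured genes had a ratio under 1 and 1 had a ratio above 1.

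Genes of the list were also lower in the other gates. Rsad2 was at 151 and 4.58 CPM in Cdkn2a-high barcodes and at 528 and 44.0 CPM in the macrophage gate, and Irf7 at 66.7 and 4.65 CPM and 646 and 44.6 CPM. Counted at a lower limit of 20 summed UMIs, 8 of 16 genes of the list were lower in high-marker members (3.97% of all 5519 genes), with a median log2 ratio of -1.01. In Cdkn2a-high barcodes 19 of 20 were lower (11.9% of all 15196 genes) with a median of -3.31, and in the macrophage gate 19 of 20 (8.07% of all 11494 genes) with a median of -3.29. How far RNA released from those cells adds to the values of the members was not tested.

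**Figure D3:**
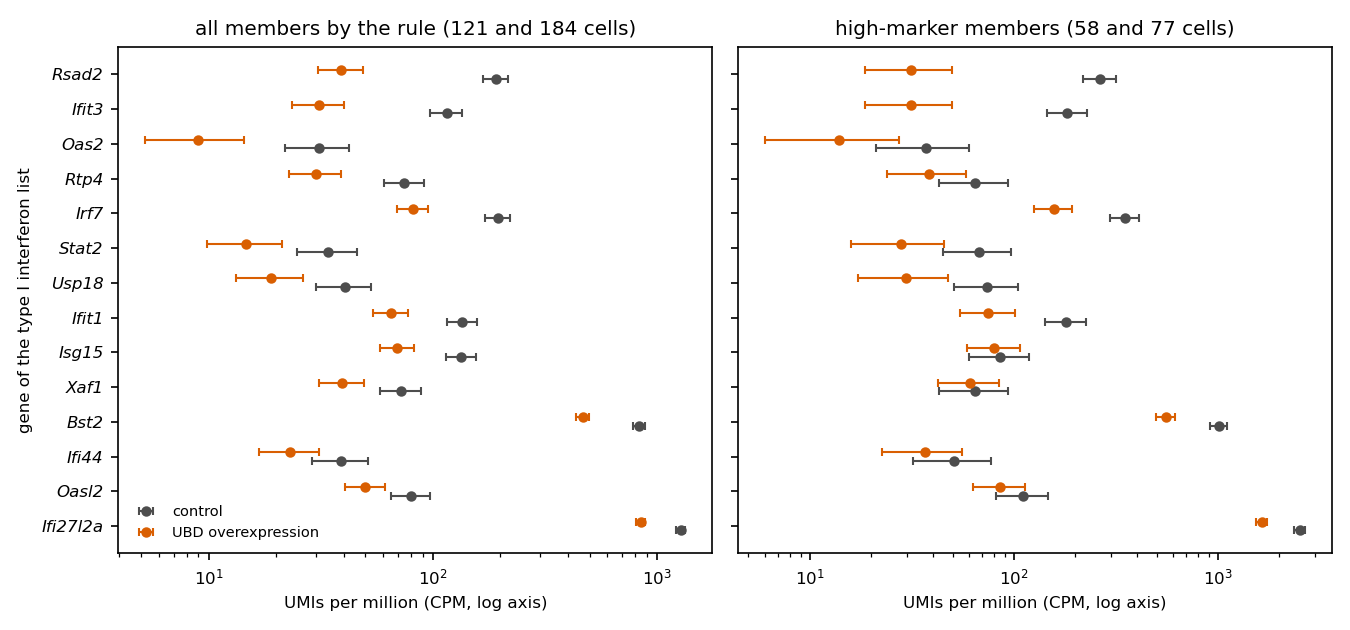
Levels of 14 of the 15 measured genes of the type I interferon list (CPM, log axis) in the control and UBD overexpression libraries, for all members by the rule and for high-marker members. Points are summed UMIs of all cells and bars 95% Poisson intervals; in members by the rule the control point lies to the right for all 14 genes shown, and in high-marker members the bars do not overlap for Ifit1, Ifit3, Irf7, Usp18, Rsad2, Ifi27l2a and Bst2.

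Interferon gamma and antigen presentation genes held fewer called members. Of 11 measured genes of the interferon gamma list in high-marker members, 0 were higher and 3 lower, with a median log2 ratio of -0.52. In members by the rule it was 0 and 1 of 13, with a median of 0.02. Gbp2, an interferon-induced GTPase, was at 141 and 55.7 CPM, 2.53-fold lower (95% interval 1.63 to 4.02), with 1 control cell supplying 36.1% of its UMIs. Gbp3 was at 90.2 and 38.3 CPM and Irgm1, an immunity-related GTPase, at 118 and 47.0 CPM. Cxcl10, a T-cell chemokine, was at 608 and 428 CPM in high-marker members and 2.09-fold lower (95% interval 1.90 to 2.31) in members by the rule, at 771 and 368 CPM. Cxcl9 was at 321 and 193 CPM, and single cells supplied 42.4% and 39.6% of its UMIs.

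Among MHC class I genes, B2m (beta-2-microglobulin) was at 2497 and 1664 CPM, a ratio of 0.666 (95% interval 0.610 to 0.728). H2-K1, a classical heavy chain, was at 1565 and 1120.0 CPM, and H2-D1 at 1524 and 1186 CPM, both under 2-fold. H2-Q6 (125 and 55.7 CPM) and H2-T23 (141 and 67.8 CPM), non-classical heavy chains, were 2.24-fold and 2.08-fold lower and made up the 2 lower genes of 14 measured, with 0 higher. H2-Q6 is 1 of several near-identical Qa genes, between which 3' reads may be divided uncertainly. In Cdkn2a-high barcodes H2-K1 was at 191 and 56.9 CPM. The proteasome subunit Psmb8 was at 153 and 157 CPM.

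Chemokine genes lay on both sides of 1 in high-marker members, and of the 4 with ratios above 1 described first, Cxcl2 alone was at least 2-fold higher. Ccl2 (MCP-1), which draws monocytes, was at 1792 CPM in control and 3423 CPM in UBD overexpression cells in high-marker members, a ratio of 1.91 (95% interval 1.76 to 2.08), and was seen in 51 and 70 cells. Ccl7 (MCP-3) was at 1404 and 2469 CPM, a ratio of 1.76 (95% interval 1.60 to 1.94). Cxcl1, a neutrophil attractant, was at 1549 and 2809 CPM, a ratio of 1.81 (95% interval 1.66 to 1.99). Cxcl2, of the same family, was at 210.4 and 489 CPM, 2.32-fold higher (95% interval 1.83 to 2.98), seen in 18 and 37 cells. It was far higher in the macrophage gate (3550 and 3200 CPM) and the neutrophil gate (30575 and 25318 CPM, from 71 and 8 barcodes). How far RNA released from those cells adds to the Cxcl2 values was not tested. Nfkbia (IkB-alpha), the inhibitor that NF-kB itself induces, was at 784 and 1532 CPM, a ratio of 1.95 (95% interval 1.72 to 2.22), and Il6 at 238 and 355 CPM, a ratio of 1.49 (95% interval 1.17 to 1.91). These 6 were singled out after their values had been seen. In all members by the rule the ratios of Ccl2, Cxcl1 and Nfkbia were 1.46, 1.26 and 1.14.

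Cdkn2a-high barcodes of the same libraries had Ccl2 at 1555 and 309 CPM, Cxcl1 at 967 and 265 CPM and Nfkbia at 617 and 319 CPM, lower in the UBD overexpression library. In the macrophage gate Ccl2 was at 1607 and 829 CPM and Ccl7 at 2300.3 and 741 CPM, lower as well. Nfkbia in the macrophage gate was at 996 and 1217 CPM, higher in the UBD overexpression library. After thinning each cell to 1000 UMIs, which left out no member, Cxcl1 was seen in 53.4% and 72.7% of high-marker members (difference 19.3 percentage points, 95% interval 2.94 to 34.6) and Il6 in 10.3% and 24.7% (difference 14.3 percentage points, 95% interval 1.01 to 26.3). Unthinned, the shares were 77.6% and 81.8% and 43.1% and 53.2%. In thinned macrophage-gated barcodes, Il6 was seen in 0.235% and 0.300%.

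**Figure D4:**
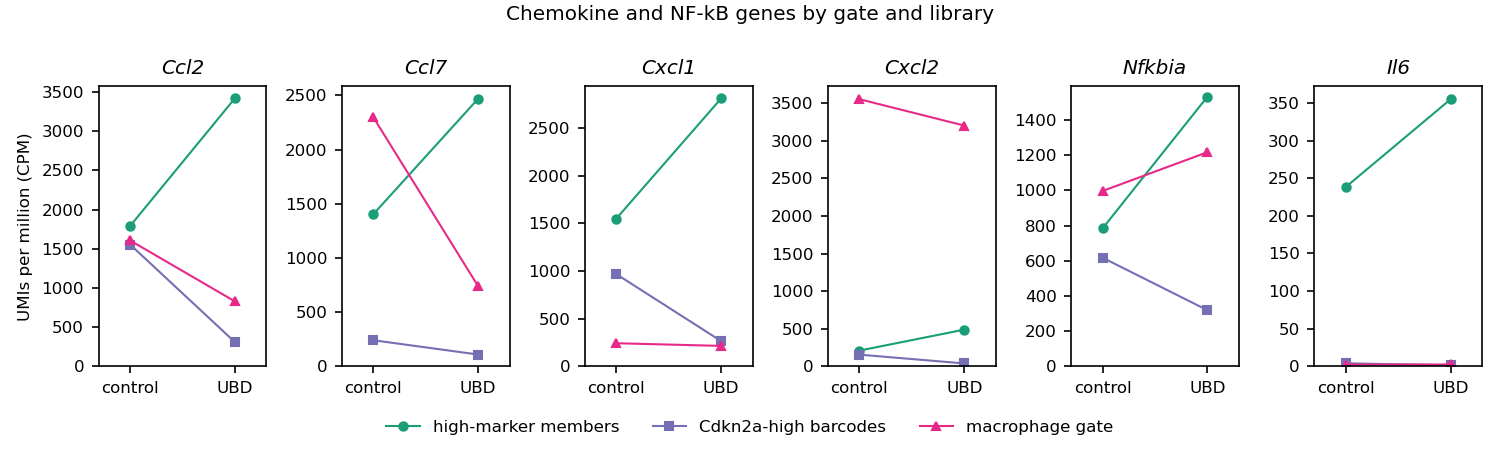
Levels of 6 chemokine and NF-kB genes (CPM, vertical axes, each from 0) in the control and UBD overexpression libraries, in high-marker members, Cdkn2a-high barcodes and the macrophage gate. Each point is 1 gate of 1 library. The 6 genes were singled out after their values had been seen, so the climb of the high-marker line in every panel follows from that choice. Other such genes, Nfkb1 and Cxcl10 among them, were lower in high-marker members of the UBD overexpression library. The Cdkn2a-high line runs down.

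As whole lists, these genes were mixed. Of 13 measured NF-kB targets in high-marker members, 1 was higher and 2 were lower, with a median log2 ratio of 0.57; in members by the rule it was 0 and 1 of 16, with a median of 0.11. Nfkb1 (p105/p50) was at 339.9 and 165 CPM, 2.06-fold lower (95% interval 1.58 to 2.69). Ccl5 was at 474 and 6.96 CPM, but 1 control cell supplied 97.6% of its UMIs. Of 11 measured inflammatory fibroblast genes, 0 were higher and 1 was lower, with a median of 0.01. The lower gene was Saa3, an acute-phase protein, at 2194 and 760.0 CPM, with 85.5% of its control UMIs from 1 cell. Ccl8 was at 534 and 297 CPM and Cxcl12, the ligand of CXCR4, at 573 and 381 CPM. Il33, an alarmin, was 4.01-fold lower (95% interval 3.41 to 4.73) in members by the rule (438 and 109 CPM), but at 231 and 188 CPM in high-marker members. In Cdkn2a-high barcodes Il33 was at 305 and 64.8 CPM.

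**Figure D5:**
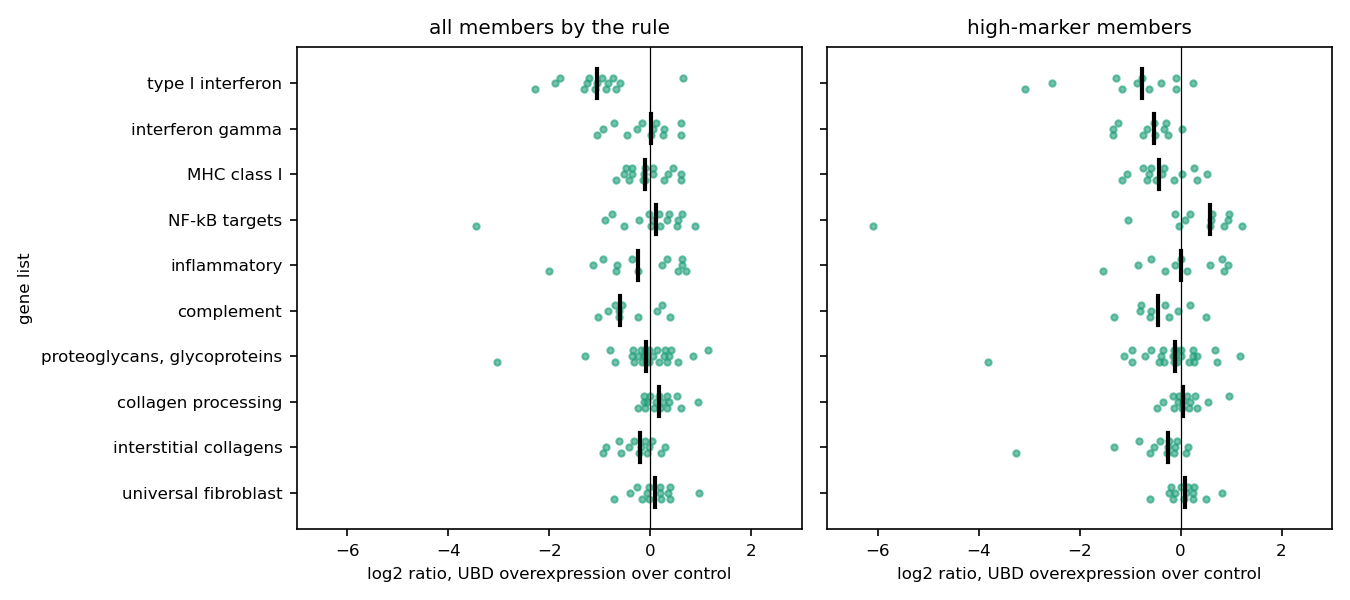
Log2 ratio of the UBD overexpression library over the control library (horizontal axes) for every measured gene of 10 gene lists (vertical axis), in all members by the rule and in high-marker members. Each point is a gene and the black bar the list's median; the type I interferon medians lie lowest in both panels, at -1.06 and -0.76, and most other medians lie within 0.5 of 0.

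Among secreted growth factors, 0 of 12 measured genes were higher in high-marker members and 3 were lower, namely Gas6, Mdk and Hbegf. Hbegf, an EGF receptor ligand, was at 208 and 69.6 CPM, 2.99-fold lower (95% interval 2.04 to 4.46). Axl, the receptor of Gas6, was at 339.9 and 317 CPM. Igf1 was at 391 and 477 CPM, Csf1, the macrophage growth factor, at 254 and 313 CPM, and Vegfa at 125 and 83.5 CPM, all under 2-fold. Igfbp3, which binds IGF1, was at 550.3 and 217 CPM, 2.53-fold lower (95% interval 2.03 to 3.17), from 13 and 12 cells. Single cells supplied 50.4% of its control UMIs and 54.4% of its UBD overexpression UMIs. Ligands and modulators of the BMP, Wnt and TGF-beta pathways gave 2 higher and 1 lower of 12 measured. Beside Wnt2, Fst (follistatin), which binds activin, was at 102 CPM in control and 226 CPM in UBD overexpression cells, 2.22-fold higher (95% interval 1.57 to 3.20), and 2.0-fold higher in members by the rule. Tgfb2 was at 106 and 52.2 CPM, 2.04-fold lower (95% interval 1.26 to 3.34). The Wnt-binding Sfrp2 was at 1047 and 664 CPM and Sfrp4 at 176 and 269.6 CPM.

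No gene of the universal or adventitial list was called. Of 14 measured genes, 0 were higher and 0 lower in either set, with median log2 ratios of 0.08 in members by the rule and 0.09 in high-marker members. The list holds Dpt, 1 of the genes by which the rule chose the cells and the high-marker limit was set. Without it 0 of 13 were called in either set, and the medians were 0.18 and 0.11. Pi16 was at 1369 and 1167 CPM, Dpp4 at 153 and 137 CPM and Ly6a (Sca-1) at 2826 and 3359.9 CPM. Thinned to 1000 UMIs, Pi16 was seen in 48.3% and 36.4% of high-marker members (difference -11.9 percentage points, 95% interval -27.9 to 4.73), against 0.176% and 0.150% of macrophage-gated barcodes. Unthinned shares were 70.7% and 66.2%. Anxa3 was the highest of the list by ratio, at 275 and 489 CPM, a ratio of 1.78 (95% interval 1.43 to 2.22), and Clec3b the lowest, at 839 and 555 CPM.

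Of 10 measured genes of the parenchymal, Col15a1-type list, 1 was higher and 1 lower. Apod (apolipoprotein D), a lipocalin, was at 1632 CPM in control and 605 CPM in UBD overexpression cells, 2.70-fold lower (95% interval 2.37 to 3.08), seen in 52 and 63 cells. Fgl2, a secreted prothrombinase-like immune modulator, was at 85.6 and 172 CPM, 2.01-fold higher (95% interval 1.37 to 3.02). Contractile genes gave 3 higher of 9 in members by the rule and 0 of 6 in high-marker members. Acta2 was at 98.5 and 210.2 CPM and Myl9 at 14.3 and 51.6 CPM in members by the rule. In high-marker members Acta2 was at 55.5 and 31.3 CPM, with fewer than 50 UMIs in all, and Postn (periostin) at 1646 and 1668 CPM. Acta2 in the UBD overexpression library stood at 434 CPM in the lowest marker band and 5.04 CPM in the highest, and members with a marker sum under 20 had 5 of 9 contractile genes with at least 20 UMIs higher (5.06% of all genes), with a median of 1.76.

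Cholesterol synthesis genes were higher in members by the rule of the UBD overexpression library, a set to which the fibroblast label is not extended as a whole. In high-marker members most genes of the list were under 50 UMIs. In members by the rule, 7 of 11 measured genes of the 16-gene list were higher and 0 lower, with a median log2 ratio of 1.27. Fdps (farnesyl diphosphate synthase) was at 22.2 CPM in control and 116 CPM in UBD overexpression cells, 5.21-fold higher (95% interval 3.51 to 8.02). Hmgcs1, which makes HMG-CoA and whose promoter stretch is printed above, was at 45.3 and 122 CPM, 2.69-fold higher (95% interval 2.0 to 3.66). Msmo1 was at 19.1 and 58.0 CPM, Idi1 at 6.36 and 32.1 CPM, Cyp51 at 35.0 and 78.5 CPM and Fdft1 at 12.7 and 30.6 CPM.

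In high-marker members Hmgcs1 was at 43.9 and 103 CPM, 2.34-fold higher (95% interval 1.37 to 4.15). Fdps, with 5 and 37 UMIs and so under the minimum of 50, was at 11.6 and 64.3 CPM. The list summed to 282 and 469.6 CPM in high-marker members, a difference under 2-fold, and to 344 and 699 CPM in members by the rule. Cdkn2a-high barcodes had Fdps at 107 and 175 CPM and the macrophage gate at 13.7 and 41.4 CPM. At a minimum of 20 UMIs, 8 of 12 genes of the list were higher in members with a marker sum under 20, 9 of 16 in the macrophage gate and 0 of 16 in Cdkn2a-high barcodes, with medians of 1.34, 1.04 and 0.57. Over all genes 5.06%, 3.41% and 4.42% were higher in those sets.

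Proliferation genes were low and unevenly placed. The 20 cell cycle genes summed to 224 and 643 CPM in high-marker members, where none reached 50 UMIs and 8 of the 11 with at least 20 UMIs were higher (beside 4.44% of all genes at that minimum), and to 861 and 1047 CPM in members by the rule. Cks1b, a cyclin-dependent kinase subunit, was at 30.1 and 117 CPM in high-marker members, 3.88-fold higher (95% interval 2.12 to 7.65), seen in 11 and 37 cells. Stmn1 (stathmin) was at 30.1 and 111 CPM and Dut, which clears dUTP, at 27.7 and 88.7 CPM. In Cdkn2a-high barcodes Cks1b was at 361 and 364 CPM and Stmn1 at 277 and 273 CPM. Cdkn2a in high-marker members was at 53.2 and 59.1 CPM, and its part in these genes was not tested. Glycolysis and hypoxia genes gave 0 higher and 3 lower of 17 in members by the rule, with a median of -0.25, and 0 and 1 of 13 in high-marker members, with a median of 0.21.

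Complement genes lay mostly below 1. Of 10 measured, 0 were higher and 1 was lower in high-marker members, with a median log2 ratio of -0.45 and 8 of 10 had a ratio under 1. C2, a component of the classical C3 convertase, was at 173 CPM in control and 69.6 CPM in UBD overexpression cells, 2.49-fold lower (95% interval 1.68 to 3.76). C1s1 and C1ra, proteases of the C1 complex, were at 751 and 435 CPM and 555 and 320.0 CPM, and C4b at 1861 and 1221 CPM, each under 2-fold. C3, the central component, was on the other side, at 1843 and 2097 CPM, a ratio of 1.14 (95% interval 1.04 to 1.25).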

How the data were processed

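The authors deposited, for each of the 2 libraries, a matrix of raw UMI counts per gene and barcode (31053 genes), with software version 3.1.0, per the file headers. Per the submitters' processing notes the tools were Cell Ranger and STAR with build mm10, and per the labels' protocols the kit was Chromium 3' v3. Members and gene lists were chosen with earlier results of these data known, and the high-marker limit of 40 after seeing the data. UMIs were summed over the members of a library, with no scaling beyond CPM. Ratios carry exact conditional binomial 95% intervals, shares Clopper-Pearson and their differences Newcombe intervals, computed with SciPy 1.17.1 and tested on simulated data. Medians covered genes with 50 or more UMIs. The 35 symbols shared by gene IDs, Aldoa among them, were left out of the lists. A gene with 0 UMIs on 1 side was set against 3 UMIs. Named genes were the 15 largest and 15 smallest ratios among genes at 50 CPM or more in 1 library, seen in at least 10 and 10% of the cells of the higher library, past 2-fold, in the same direction with cells weighted equally, and at 20% or more of the highest level in any other gate, together with the 6 deepest and all 2-fold members of each list. Scrublet (in scanpy) marked 1 member as a doublet, which stayed in. Other gates were Cdkn2a-high (5 or more per 10000, no Ptprc or Cdh5), macrophage (Ptprc seen, C1q genes at 10 or more per 10000), T cell (Ptprc and Cd3), endothelial (Cdh5 and Pecam1) and neutrophil (Ptprc, S100a8 and S100a9) barcodes. Alternatives changed the limits on UMIs per barcode, marker sum, Cdkn2a and summed UMIs, the weight of cells, thinning, scaling and the denominator. Others left out doublets, barcodes with macrophage RNA over 20 per 10000 or the deepest barcodes, or kept only barcodes with a Y-linked UMI. The marker sum of 40 and the deepest barcodes were added after seeing the data. Some genes of the lists enter the counts and medians and are not reported here by name. Gene positions come from GENCODE vM21 (31011 of 31053 IDs matched) and promoters from RefSeq.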

Additional observations from a re-analysis of the deposited data

Results flagged for a closer look

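Genes that were at least 2-fold different in 1 direction in the fibroblast-type cells and at least 2-fold in the other direction in another gate of the same libraries are listed here. Fgl2, an immune modulator, had a log2 ratio of 1.01 in high-marker members (85.6 and 172 CPM) and of -1.73 in the macrophage gate (381 and 115 CPM). Lyz2 (lysozyme), a macrophage marker, had a log2 ratio of -1.20 in high-marker members (87.9 and 38.3 CPM) and of 1.26 in the macrophage gate (2918 and 6971 CPM). Cxcl2, a neutrophil chemokine, had a log2 ratio of 1.22 in high-marker members (210.4 and 489 CPM) and of -1.55 in the T cell gate (386 and 132 CPM). Hspb1, a small heat shock protein, had a log2 ratio of 1.40 in members by the rule (157 and 416 CPM) and of -1.22 in Cdkn2a-high barcodes (313 and 135 CPM). Il11, an IL-6 family cytokine, had a log2 ratio of 2.94 in members by the rule (7.15 and 54.8 CPM) and of -3.62 in Cdkn2a-high barcodes (71.0 and 5.79 CPM). Cxcl2 had a log2 ratio of 1.22 in high-marker members (210.4 and 489 CPM) and of -1.98 in Cdkn2a-high barcodes (156 and 39.6 CPM). Crabp1, a retinoic acid binding protein, had a log2 ratio of 1.87 in high-marker members (32.4 and 118 CPM) and of -3.16 in Cdkn2a-high barcodes (173 and 19.3 CPM). With 1 library per group, the difference between the gates was not tested for any of them. The ratio of Il11 in members by the rule rests on 9 UMIs in the control library. Of its 104 UMIs in the UBD overexpression library, 1 cell supplied 79.8%. In high-marker members Il11 was at 11.6 and 10.4 CPM, from 5 and 6 UMIs, so the higher level was not seen there. Crabp1 was seen in 3 and 7 cells of the high-marker members.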

How the results depend on the processing

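No paired analysis was possible because each group holds 1 library and no result comes from a test; for the same reason no replicate could be left out. The share difference of 0.499 percentage points was 0.188 with members carrying a Y-linked UMI, 0.155 at a marker sum of 40 and 2.20 over barcodes with Cdkn2a under the limit. The 122 higher and 192 lower genes became 25 and 25 with cells thinned to 1000 UMIs, 210 and 415 with a minimum of 20 summed UMIs, and 31 and 51 with a minimum of 200; these change how many genes are measured. The lower genes numbered 310 at a marker sum of 5 and 92 at 40. The type I interferon median was -1.59 at a marker sum of 5, and the universal fibroblast median -0.28 with cells weighted equally. Signs turned for the cell cycle list (-0.13 at a marker sum of 5), for the glycolysis and hypoxia list (0.20 with Cdkn2a under 2 per 10000, 0.40 with a Y-linked UMI, 0.21 at a marker sum of 40) and for Tagln (-0.22 at a marker sum of 40). The cause was not tested. The marker sum of 40 and leaving out the deepest barcode were chosen after seeing the data. Of the other values, 411 list medians, 603 named-gene ratios, 24 counts and 14 shares stayed within their counting error or limits, while 26 list medians and 110 named-gene ratios moved without a change of sign. Values that moved and changed sign without a called direction were the universal median above, the interferon gamma median (-0.85 with a Y-linked UMI), the surface receptor median (0.15 with thinned cells), and Stmn1 (-0.05) and Gpnmb (0.23) at a marker sum of 5. The cholesterol list gave no value with thinned cells. Genes under 50 UMIs, such as most cell cycle and cholesterol genes in high-marker members, lie beyond this depth.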

Other observations

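Transcription factors and surface receptors that define fibroblasts differed little. Of 17 measured transcription factors in high-marker members, 1 was higher and 0 were lower, with a median log2 ratio of -0.03. The higher gene was Osr1, a factor of connective tissue progenitors, at 37.0 and 99.1 CPM, 2.68-fold higher (95% interval 1.52 to 5.00). Of 19 measured receptors 0 were higher and 0 lower, with a median of -0.11. ER stress and secretory genes gave 1 higher and 0 lower of 15, with a median of 0.43, and the higher gene was Creld2, an ER stress-induced chaperone-like protein, at 32.4 and 97.4 CPM. Immediate early and dissociation stress genes gave 1 higher and 0 lower of 19, with a median of -0.20. The 20 cytosolic ribosomal protein genes gave 0 and 0, with a median of 0.16. Basement membrane genes gave 0 and 0 of 10, with a median of -0.06.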
